A study of Mus musculus with 6 samples.

Results

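The clustered replication histone genes are the genes of the mouse Hist1, Hist2, Hist3 and Hist4 loci, which encode the linker histone H1 and the core histones H2A, H2B, H3 and H4. They were taken as every protein-coding gene of the deposited table whose name starts with Hist1h, Hist2h, Hist3h or Hist4h, which gave 67 genes of 55840. By class these were 6 H1, 18 H2A, 18 H2B, 12 H3 and 13 H4 genes. The study sequenced RNA of mouse Tregs from spleen and lymph nodes; Tregs, or regulatory T cells, are CD4 T cells that restrain immune responses under the control of the factor Foxp3. The 2 groups were wild type (WT) and Exon2KO, which the series title writes as Foxp3 with a delta 2 mark, with 3 libraries each. The labels call the samples of a group biological replicates and give no age, no strain, no treatment and no account of which cells of the animal carry the deletion, how the Tregs were isolated or whether animals were pooled. The table names its columns by genotype and by a number, 2, 6 or 20, and libraries are named here in the same way, such as WT 20.

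Replication histones package the DNA that a cell copies in S phase, and their mRNAs are known to accumulate in S phase and to be degraded when replication ends. Most of these genes have no intron, and their mRNAs usually end in a conserved stem-loop in place of a poly(A) tail; the stem-loop is bound by the protein SLBP, and U7 snRNP with its partners Lsm10 and Lsm11 directs the cut just after it. Some of these genes are also known to give polyadenylated mRNAs, above all in cells that have stopped dividing. The replacement histones, such as H3f3a and H2afz, lie elsewhere in the genome, have ordinary polyadenylated mRNAs and are made throughout the cell cycle. Tregs of lymphoid organs hold both resting and dividing cells.

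The loci lie on 4 chromosomes of the mouse build GRCm38, each in 1 stretch. Hist1 holds 54 of the 67 genes on chr13:21715763-23934851. Hist2 holds 10 genes on chr3:96219865-96270132, Hist3 holds Hist3h2a and Hist3h2ba on chr11:58948920-58956830, and Hist4 holds Hist4h4 alone on chr6:136801553-136804415. In the GENCODE release M21 annotation the transcript used here, chosen as described below, has a single exon for 63 of the 67. The exceptions are Hist1h2bc, Hist1h2be, Hist1h2bq and Hist1h2br. Other transcripts of a gene can be spliced: Hist1h2bp spans chr13:21787461-21789213, more than its gene length of 706 bases.

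The stem-loop is shown here because it is the feature that sets the ends of these mRNAs apart from other mRNAs. It was searched for on the transcribed strand, after the stop codon, in every coding transcript of a gene. For each histone gene the longest transcript with a match was kept, or the longest of all where none had a match. The pattern was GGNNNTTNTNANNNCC with the first and last 6 bases perfectly complementary around a loop of 4. This pattern was settled after a looser one had been tried on the same genes. It was found in 46 of the 67 genes, always within 150 bases of the stop codon. Of 20929 other protein-coding genes, 14 (0.0669%) held it after the stop codon and 4 within 150 bases. In 15 of the 21 histone genes without a match, fewer than 16 bases are annotated after the stop codon. A missing match says only that these letters are not in the annotated transcript. The runs below give the 16 bases of the stem-loop in capitals with 5 bases on each side, 5′ to 3′ on the transcribed strand, from the GENCODE M21 transcripts.
Hist1h1c, chr13:23739507-23739532, plus strand: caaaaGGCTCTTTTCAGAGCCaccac
Hist3h2a, chr11:58955167-58955192, plus strand: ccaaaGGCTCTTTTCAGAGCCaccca
Hist3h2ba, chr11:58949344-58949369, plus strand: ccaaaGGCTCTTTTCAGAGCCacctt
Hist2h3c2, chr3:96238480-96238505, minus strand: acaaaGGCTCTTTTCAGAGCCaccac
Hist1h4d, chr13:23581945-23581970, plus strand: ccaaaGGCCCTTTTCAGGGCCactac
Hist1h4i, chr13:22040961-22040986, minus strand: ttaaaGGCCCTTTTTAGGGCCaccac
The first 4 share 1 core, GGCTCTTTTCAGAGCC, which occurs in 26 of the 46 genes, of the H1, H2A, H2B and H3 classes. The core of Hist1h4d, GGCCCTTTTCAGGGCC, occurs in 7 genes, all H4, and that of Hist1h4i in Hist1h4i and Hist2h4. There were 8 forms of the core in all. Hist2h2be and Hist1h2bc, 2 of the genes with the most counts, have no match.

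Counts of the clustered histone genes were low. Together they took 4362 counts over the 6 libraries, from 546 in WT 2 to 925 in Exon2KO 6, of library totals between 17998216 and 21003496. Of the 67 genes, 54 had at least 1 count, 34 had a count in every library and 13 had none. A level of 0 counts allows up to 3 counts, or 0.143 to 0.167 CPM (counts scaled by the library total), for counting error only. By class, at least 1 count was found for 5 of 6 H1, 12 of 18 H2A, 15 of 18 H2B, 10 of 12 H3 and 12 of 13 H4 genes. The genes with no count were Hist1h1t, known as a testis linker histone; the H2A genes Hist1h2aa, Hist1h2an, Hist1h2ap, Hist2h2aa1, Hist2h2aa2 and Hist2h2ab; the H2B genes Hist1h2ba, known as a testis form, Hist1h2bp and Hist2h2bb; Hist2h3b and Hist2h3c1; and Hist1h4b.

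Within the family the counts were concentrated in few genes. Hist1h1c, a linker histone gene, had 833 counts, 81.3% of those of its class and 19.1% of all. Together with Hist3h2ba (531), Hist2h2be (479), Hist1h4i (410), Hist1h2bc (306) and Hist3h2a (188) it held 63.0% of the family's counts. By class, H2B took 37.3%, H1 23.5%, H4 21.4%, H2A 12.0% and H3 5.82% of the counts. The H3 class had no dominant gene: its top gene, Hist2h3c2, had 58 counts, 22.8% of the class. Per length, as CPM of the plain library total divided by the gene length in kilobases (RPKM, computed from the counts) averaged over the 6 libraries, the highest levels were 7.59 for Hist3h2ba, 4.93 for Hist1h4i, 4.73 for Hist1h1c and 2.33 for Hist1h2bc, and the median of the 67 genes was 0.234. As a sum the family was far below the replacement histones. Those 11 genes summed to 1452 to 1840 CPM per library on TMM-scaled library sizes, on average 42.4 times the sum of the 67 clustered genes, without regard to length.

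Many clustered histone genes are near-copies of each other, which bears on how reads could be assigned. The share of 100-base windows of a gene's transcripts that also occur in another gene's transcripts was 100% for 5 genes, Hist2h2aa1, Hist2h2aa2, Hist2h2bb, Hist2h3b and Hist2h3c1, and all 5 had 0 counts. The other gene could lie in or outside the family, and a match on either strand was counted. Each of these 5 also overlaps other annotated genes, such as Gm20634 for Hist2h2aa1 and Hist2h3c1. The share thus does not separate copies elsewhere from overlap at the same place, and the part of either in the 0 counts was not tested. Of the other 62 genes 8 had 0 counts. Another 23 genes shared between 50% and under 100% of their windows and had 8.09% of the family's counts. The 13 genes that shared under 10% had 53.8% of them, and Hist2h2be, Hist2h4 and Hist1h4d were among the 6 that shared no window. How the authors treated reads that match several genes is not given in the sources used here, so values of genes such as Hist1h2ao, with 92.7% of its windows shared and the same coding sequence as Hist1h2ap, are uncertain. Strand use is not given either. Most H2A genes overlap a predicted gene on the opposite strand, Hist3h2a overlaps Trim17, and Hist1h1e and Hist1h2be overlap each other.

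Genes with a poly(A) signal in their annotated tail held most counts. The hexamers AATAAA or ATTAAA occur after the coding end, past the stem-loop where there is one, in 21 of the 67 genes, and these held 3450 counts, 79.1% of the family's. Their median level was 0.433 RPKM against 0.226 RPKM in the 46 genes without, and 10 of the 13 genes that passed the count filter described below were among them. Among the genes with under 50% shared windows the medians were 0.733 RPKM (18 genes) and 0.3004 RPKM (21 genes). The groups also differed in annotated length, with medians of 1630 and 481 bases. A longer tail has more room for a hexamer, and these groupings were made after the counts were seen, so the values are a description with no test. Within the last 40 bases, where such a signal usually lies, 16 of the 67 genes (23.9%) and 78.8% of the other protein-coding genes had one. These shares were not measured alike. Each histone gene was scored on its kept transcript only, past any stem-loop, even with fewer than 16 bases after the stop codon. The other genes were scored on any coding transcript with at least 16 bases there. The labels do not say whether poly(A) RNA was selected, and the part of such a step in these levels was not tested. The runs below show the hexamer in capitals with 10 bases on each side for the genes with the most counts, which carry both a signal and, except for Hist2h2be, the stem-loop.
Hist1h1c, chr13:23740332-23740357, plus strand: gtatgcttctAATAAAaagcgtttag
Hist3h2ba, chr11:58949497-58949522, plus strand: taatggtattAATAAAtttggttcaa
Hist2h2be, chr3:96223707-96223732, plus strand: tattattattAATAAAgttaccgatt
Hist1h4i, chr13:22040641-22040666, minus strand: ttctgtttacATTAAAagtattctat
Annotated sequence runs on past the stem-loop for 840 bases in Hist1h1c, 330 in Hist1h4i and 169 in Hist3h2ba.

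**Figure D1:**
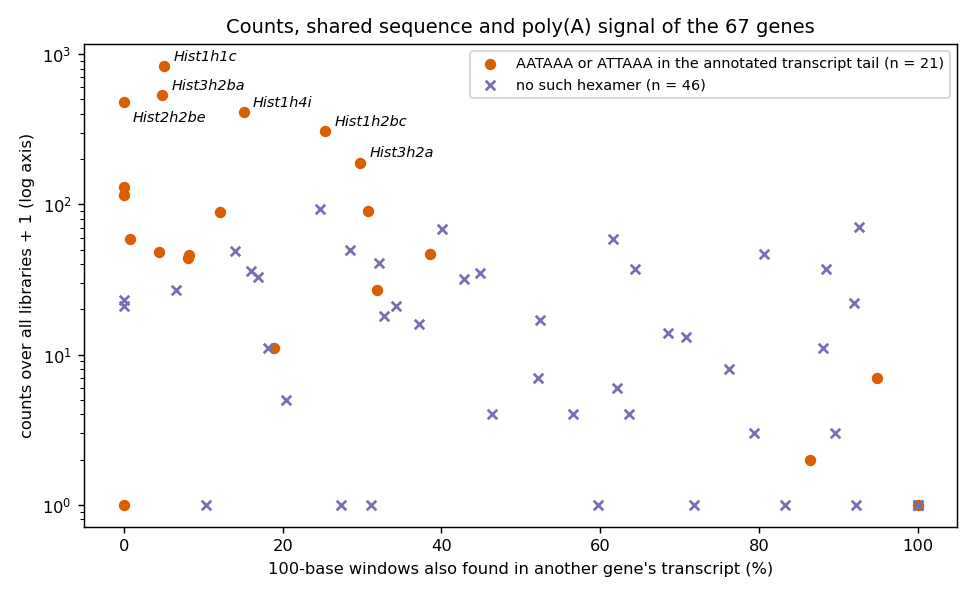
Each point is 1 of the 67 genes. The horizontal axis gives the percent of its 100-base windows that occur in another gene's transcript, and the vertical axis its counts summed over the 6 libraries plus 1 (log scale). Circles mark the 21 genes with AATAAA or ATTAAA after the coding end, which include the 6 named genes with the most counts; the 5 genes at 100% all sit at 0 counts.

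Markers of Tregs and of other cells were looked at before the genotypes were compared. Foxp3, the edited gene, had 602 to 925 CPM, and its gene-level counts cannot show the missing exon, so they do not check the labels. The other Treg and T cell markers looked at, Il2ra, Ctla4, Ikzf2, Cd4 and Cd3e, were all well above the floor. Il2ra, Ctla4 and Ikzf2 were called lower in Exon2KO by edgeR, at -0.52, -0.85 and -0.66 on the log2 scale (adjusted p = 0.0429, 0.00677 and 0.0240), and their genotypes did not overlap (2.33% of all tested genes called, 17.7% without overlap). Foxp3, Cd4 and Cd3e were not called, at 0.19, 0.22 and 0.02; the genotypes of Cd4 did not overlap either. Summed CPM of markers of other cells ranged from 10.5 to 16.05 for the 4 CD8 and NK cell genes, 22.5 to 31.0 for the 4 B cell genes, 12.2 to 35.4 for the 4 myeloid genes and 3.21 to 15.5 for 3 erythroid genes. The stromal list summed to 165 to 225 CPM, nearly all from Pecam1, which T cells also express. Pecam1 was at 0.24 on the log2 scale and higher in Exon2KO in each same-numbered pair, while the collagen genes of fibroblasts were at -1.20 for Col1a1, lower in each pair, and at -1.54 for Col1a2, lower in 2 pairs; edgeR called none of these (adjusted p = 0.317, 0.377 and 0.419), though with the block Pecam1 was called higher (adjusted p = 0.0164). Cd14 was at 0 in 3 libraries. 

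The genotype comparison asked which clustered histone genes differ between Tregs with and without the exon. None of the 13 genes that could be tested was called. Of the 67 genes, 13 passed the filter on low counts: 2 H1, 3 H2A, 5 H2B, 3 H4 and no H3 gene. Of these, 0 were called by edgeR's quasi-likelihood test at an adjusted p under 0.05, where 2.33% of the 14919 tested genes were. With the column number as a replicate block 0 of 13 were called, against 9.72% of all tested genes (1450 in place of 348). DESeq2 (3.78% of genes with an adjusted p called) and limma-voom (289 of 14919 genes called) also called none of the family. Nor did edgeR without a filter, which tested 54 members (2.3% called). At an unadjusted p under 0.05 there was 1 of the 13, Hist3h2ba, where all tested genes gave 12.1%. With the block there were 3, Hist3h2ba, Hist2h2be and Hist1h2bj, where all tested genes gave 21.5%. The libraries of the 2 genotypes did not overlap for 4 of the 13 (17.7% of all tested genes). For 2 of these 4, Hist1h2ae and Hist1h2bj, the filter had a part in this: each passed with at least 10 counts in the 3 libraries of the genotype where it was higher and in 1 library of the other, so neither supports a difference. With at least 10 counts asked of every library, 8 members were tested, 0 were called and the median was 0.25. In that fit 321 of all 13169 tested genes were called.

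The log2 fold changes of the 13 genes ran from -1.17 to 0.84, with 10 above 0, 3 below and a median of 0.25; the median of all tested genes was 0.0084. This median moved with single libraries: without Exon2KO 6 it was 0.0021, with 8 positive and 7 negative among 15 tested, and without WT 2 it was 0.13, with 10 positive and 8 negative among 18 tested. In the other fits that left out a library it lay between 0.23 and 0.46. The 41 members that had counts but did not pass the filter, with 1 to 58 counts each, lay the other way in the edgeR fit without a filter, with 13 positive, 28 negative and a median of -0.41; over all genes that did not pass, the median was -0.07. Their summed level was 7.13, 11.6 and 9.24 CPM of the plain library total in WT 2, 6 and 20 and 6.58, 9.20 and 7.06 CPM in Exon2KO 2, 6 and 20. It was lower in Exon2KO in each same-numbered pair, and the genotypes overlapped. The 13 that passed summed, on the plain total, to 22.6, 31.9 and 27.9 CPM in WT and 30.0, 37.6 and 29.4 CPM in Exon2KO, higher in Exon2KO in each pair, again with overlap. This split by the filter was made after the values were seen and has no test.

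**Figure D2:**
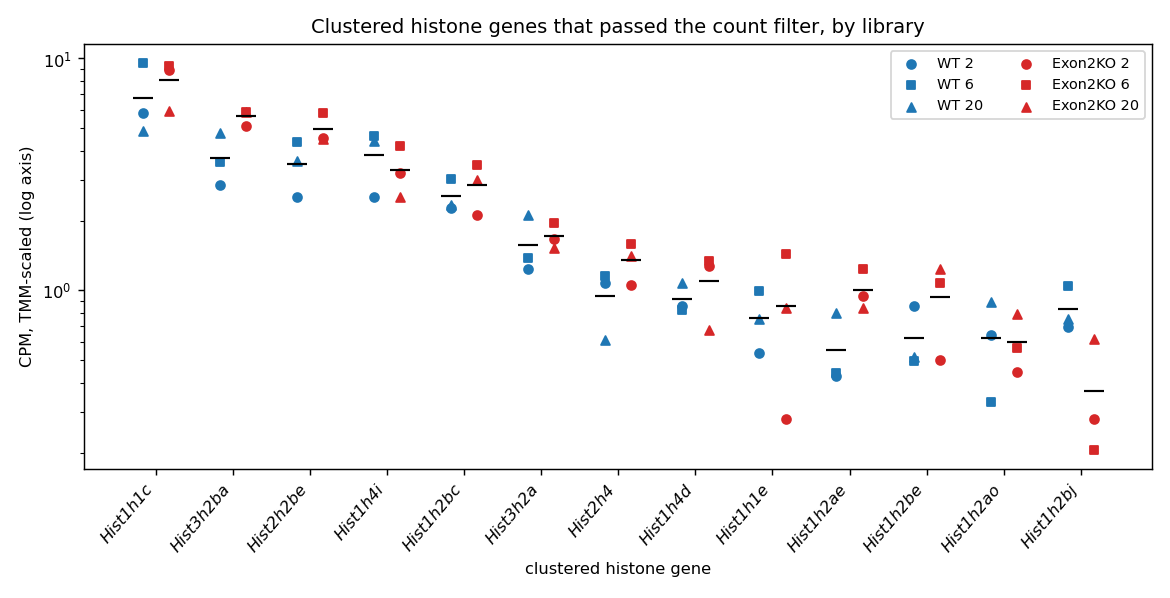
Levels of the 13 clustered histone genes that passed the filter, in CPM on TMM-scaled library sizes (log axis). Each point is 1 library, blue for WT and red for Exon2KO, with the column number as its shape; bars are the means of 3 libraries. The genotypes overlap in 9 genes and stand apart in Hist3h2ba, Hist2h2be, Hist1h2ae and Hist1h2bj.

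Among H1 genes, Hist1h1c (ENSMUSG00000036181, chr13:23738808-23740367, plus strand) had 5.80, 9.53 and 4.88 CPM in WT 2, 6 and 20 and 8.95, 9.28 and 5.96 CPM in Exon2KO 2, 6 and 20. The genotypes overlapped, and the libraries numbered 20 were the lowest within Exon2KO and within WT. The means were 6.74 ± 2.46 and 8.07 ± 1.83 CPM (SD, n = 3 each). By edgeR the log2 fold change was 0.26 (SE 0.28, adjusted p = 0.836), with a 95% confidence interval from -0.37 to 0.90. It ran from 0.07 (without WT 20) to 0.60 (without WT 6) when single libraries were left out. Hist1h1e, the other H1 gene tested, gave 0.17 with an interval from -1.11 to 1.46.

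H2A genes were represented by Hist3h2a, Hist1h2ae and Hist1h2ao. Hist3h2a (ENSMUSG00000078851) had 1.24, 1.38 and 2.11 CPM in WT and 1.67, 1.95 and 1.52 CPM in Exon2KO, in the order 2, 6 and 20. The genotypes overlapped, with WT 20 the highest of all, and the log2 fold change was 0.12 (SE 0.34, edgeR adjusted p = 0.956). Hist1h2ae (ENSMUSG00000069272, chr13:23570517-23571220, minus strand) had 0.430, 0.441 and 0.798 CPM in WT and 0.945, 1.23 and 0.844 CPM in Exon2KO. Each Exon2KO library lay above each WT library, by a small margin between WT 20 and Exon2KO 20. Its log2 fold change of 0.84 was the highest of the 13, with an SE of 0.44, an interval from -0.15 to 1.83 and an edgeR adjusted p of 0.533; it rests on 8 to 24 counts per library, and the gene passed the filter through Exon2KO, where it is high. Hist1h2ao gave -0.07 with an interval from -1.21 to 1.07.

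The H2B class had the genes closest to a difference. Hist3h2ba (ENSMUSG00000056895, chr11:58948920-58949533, plus strand) had 2.85, 3.58 and 4.79 CPM in WT 2, 6 and 20 and 5.11, 5.90 and 5.85 CPM in Exon2KO 2, 6 and 20. All 3 Exon2KO libraries were above all 3 WT libraries, and the means were 3.74 ± 0.980 and 5.62 ± 0.441 CPM (SD, n = 3 each). The log2 fold change was 0.59 (SE 0.25, 95% confidence interval 0.04 to 1.13), with an unadjusted p of 0.0391 and an adjusted p of 0.364 by edgeR. With the block the adjusted p was 0.0856, and over all alternatives it ran from 0.0815 to 0.629, so the gene was called in none of them.

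Hist2h2be (ENSMUSG00000068854, chr3:96221119-96223738, plus strand), whose annotated mRNA has a long tail with a poly(A) signal and no stem-loop match, had 2.52, 4.35 and 3.61 CPM in WT and 4.56, 5.85 and 4.50 CPM in Exon2KO. The genotypes stood apart, WT 6 being close to the lowest Exon2KO library. The log2 fold change was 0.51 (SE 0.26, interval -0.08 to 1.10, edgeR adjusted p = 0.523); with single libraries left out it ran from 0.32 without WT 2 to 0.69 without WT 6. Hist1h2bc (ENSMUSG00000018102), which has 2 exons, had 2.26, 3.03 and 2.35 CPM in WT and 2.11, 3.49 and 2.98 CPM in Exon2KO. Its genotypes overlapped, and the log2 fold change was 0.17 (SE 0.29, edgeR adjusted p = 0.908).

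Hist1h2bj, named after its values were seen because it was the lowest of the 13, had 0.698, 1.05 and 0.751 CPM in WT and 0.278, 0.205 and 0.619 CPM in Exon2KO. Every Exon2KO library lay below every WT library. The log2 fold change was -1.17 (SE 0.53, interval -2.37 to 0.02, edgeR adjusted p = 0.423), from 4 to 19 counts per library, and the gene passed the filter through WT, where it is high. Hist1h2be, which overlaps Hist1h1e, gave 0.59 with an interval from -0.50 to 1.68. The 5 H2B genes thus gave 4 positive values and 1 negative value.

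No H3 gene passed the filter. The top H3 gene, Hist2h3c2 (ENSMUSG00000081058), was counted 3, 9 and 4 times in the WT libraries 2, 6 and 20, and 5, 22 and 15 times in the Exon2KO libraries 2, 6 and 20. It was higher in Exon2KO in each same-numbered pair, while the genotypes overlapped. In the edgeR fit without a filter the log2 fold change was 1.40 (SE 0.68, unadjusted p = 0.0445, adjusted p = 0.542). Of its windows 61.6% are shared with other genes, so its counts are uncertain. The H3 class as a sum on the plain library total lay the other way, at 2.50 ± 0.690 CPM in WT and 1.93 ± 0.877 CPM in Exon2KO (SD, n = 3 each), a difference smaller than either spread; it was lower in Exon2KO in each same-numbered pair. With single libraries left out the difference ran from -0.944 CPM without WT 2 to -0.0678 CPM without Exon2KO 2.

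H4 genes gave both signs. Hist1h4i (ENSMUSG00000060639, chr13:22040636-22041362, minus strand) had 2.52, 4.63 and 4.41 CPM in WT and 3.22, 4.21 and 2.53 CPM in Exon2KO, with overlap; edgeR gave -0.21 on the log2 scale (SE 0.31, adjusted p = 0.891). Hist2h4 (ENSMUSG00000091405) had 1.07, 1.157 and 0.610 CPM in WT and 1.06, 1.59 and 1.41 CPM in Exon2KO, which overlapped; edgeR gave 0.52 on the log2 scale (SE 0.39, adjusted p = 0.730). Hist1h4d (ENSMUSG00000061482) had 0.859, 0.826 and 1.08 CPM in WT and 1.28, 1.33 and 0.675 CPM in Exon2KO, again overlapping; edgeR gave 0.25 on the log2 scale (SE 0.40, adjusted p = 0.904). None of these 3 differences exceeded the spread between replicates by that test. When single libraries were left out, Hist2h4 ran from 0.28 to 0.69 and Hist1h4d from 0.07 to 0.49. Hist1h4i ran from -0.45 without WT 2 to -0.057 without Exon2KO 20, and turned to 0.057 without both libraries numbered 20.

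**Figure D3:**
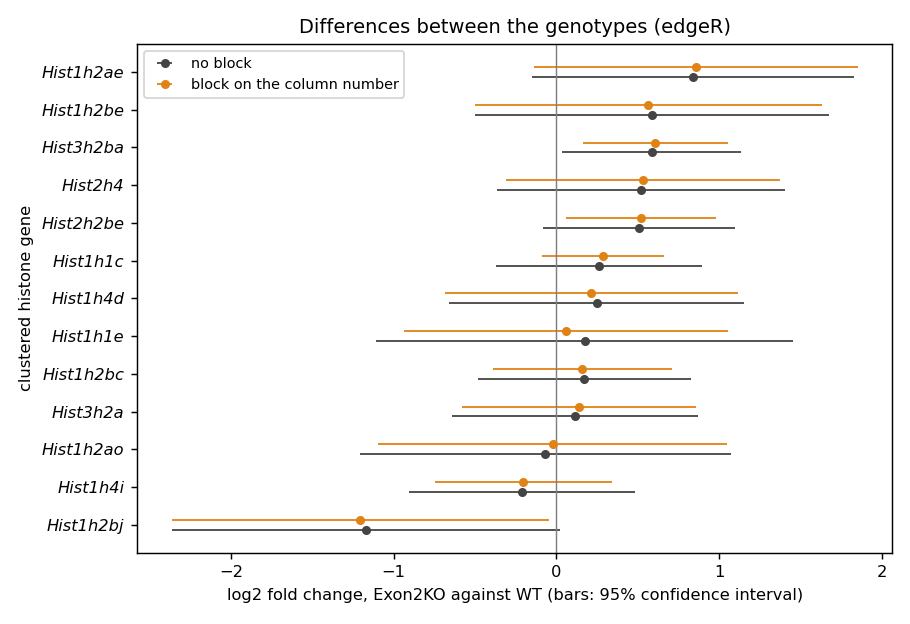
Log2 fold changes of the 13 tested genes, Exon2KO against WT, by edgeR without a block (black) and with the column number as a block (orange); bars are 95% confidence intervals and values right of 0 are higher in Exon2KO. Without the block only the interval of Hist3h2ba, 0.04 to 1.13, leaves out 0.

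The authors' deposited table was read for the same genes. It gives a comparison for 53 of the 67 genes, with none at an adjusted p under 0.05 (2.55% of its 24985 genes). Its lowest adjusted p in the family, 0.424, belongs to Hist3h2ba, at a log2 fold change of 0.59.

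As a sum, the family took 29.7, 43.5 and 37.2 CPM of the plain library total in WT 2, 6 and 20 and 36.6, 46.8 and 36.4 CPM in Exon2KO 2, 6 and 20. The libraries numbered 6 were the highest in both genotypes. The means were 36.8 ± 6.89 and 39.9 ± 5.93 CPM (SD, n = 3 each). Their difference of 3.13 CPM was smaller than either SD and became -0.405 CPM without WT 2. By pair, the sum was higher in Exon2KO for numbers 2 and 6 and lower for number 20. On TMM-scaled library sizes it was 29.3, 43.3 and 36.6 CPM in WT and 37.1, 47.4 and 36.9 CPM in Exon2KO. There it was higher in Exon2KO in each pair, with overlap between the genotypes and a difference of 4.04 CPM. A difference in the number of expressing cells and one in RNA per cell cannot be told apart in such bulk libraries. Of the classes, H2B had 12.9 ± 2.37 CPM in WT and 15.7 ± 1.85 CPM in Exon2KO, H1 8.55 ± 2.95 and 9.58 ± 1.88, H4 8.36 ± 1.98 and 8.02 ± 1.94 and H2A 4.46 ± 0.916 and 4.70 ± 0.456 (SD, n = 3 each). For H2B the difference was 2.76 CPM; it was 1.44 CPM without WT 2 and lay between 1.89 and 3.73 CPM without any other single library. The H2B sum was 10.3, 14.9 and 13.7 CPM in WT 2, 6 and 20 and 13.8, 17.4 and 15.9 CPM in Exon2KO 2, 6 and 20, higher in Exon2KO in each same-numbered pair, with overlap between the genotypes. The differences of H1, H2A and H4 also moved with single libraries. The H1 difference was 0.0483 CPM without WT 20 and 2.73 CPM without WT 6. That of H2A ran from -0.136 CPM without WT 6 to 0.751 CPM without WT 20, and was -0.0144 CPM without Exon2KO 6. That of H4 ran from -1.38 CPM without Exon2KO 6 to 0.648 CPM without WT 6, and was 0.534 CPM without Exon2KO 20.

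**Figure D4:**
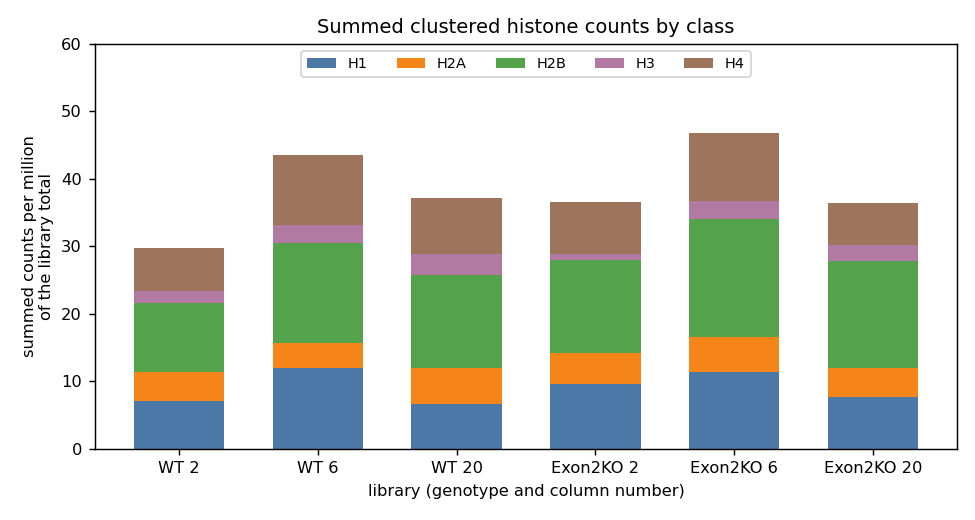
Summed levels of the clustered histone genes in CPM of the plain library total, stacked by class, for the 6 libraries. The sums run from 29.7 in WT 2 to 46.8 in Exon2KO 6, and the libraries numbered 6 are the highest of each genotype.

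Differences between the column numbers were tested in the fit with the block, an analysis added after seeing the data. Of all tested genes 10.4% were called and of the 13 clustered histone genes none, with 1 at an unadjusted p under 0.05 (25.2% of all tested genes). That gene, Hist1h1c, was 0.38 higher in number 6 and 0.43 lower in number 20 than in number 2 on the log2 scale (edgeR adjusted p = 0.0616). Summed erythroid markers were also highest in number 6, at 15.5 CPM in WT and 10.7 CPM in Exon2KO, and lowest in number 20, at 4.41 and 3.21 CPM; Hba-a1, a hemoglobin gene, made up most of them. Their part in the level of Hist1h1c was not tested.

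Genes linked to histone supply were compared in the same fit, from lists that were chosen with earlier results known. S-phase genes (24 tested), which rise in cells that copy DNA, had 22 negative log2 fold changes and a median of -0.25. By edgeR 0 were called (2.33% of all tested genes) and 1 had an unadjusted p under 0.05 (12.1%). With the block 8 were called, all lower, where 5.79% of all tested genes were called lower. Without both libraries numbered 20 the median was -0.16, with 21 negative. Without WT 20 alone, which leaves Exon2KO 20 unmatched, it was 0.06, with 14 positive and 10 negative. The list summed to 1494, 1608 and 2432 CPM in WT 2, 6 and 20 and 1350, 1474 and 1972 CPM in Exon2KO 2, 6 and 20, so that number 20 was the highest in both genotypes and Exon2KO lower in each pair. The 4 myeloid markers had the same order, with sums of 15.8, 20.2 and 35.4 CPM in WT and 12.2, 13.5 and 28.5 CPM in Exon2KO. The 4 B cell markers summed to 29.4 to 31.0 CPM in WT and 22.5 to 26.4 CPM in Exon2KO. The erythroid sum was 9.24, 15.5 and 4.41 CPM in WT and 8.06, 10.7 and 3.21 CPM in Exon2KO, also lower in each pair, as was Col1a1, with 0.333 to 2.96 CPM over the 6 libraries. The part of these cells in the S-phase values was not tested. Mki67, a marker of dividing cells, had 140, 148 and 332 CPM in WT and 115, 127 and 208 CPM in Exon2KO, and edgeR gave it -0.46 on the log2 scale (SE 0.46, adjusted p = 0.828), or -0.40 with the block (adjusted p = 0.0109). The clustered histones did not share this order of libraries: their sum was highest in number 6.

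Replacement histones had 9 tested genes of 11, with 0 called by edgeR (2.33% of all tested genes), 1 at an unadjusted p under 0.05 (12.1%) and 3 called lower with the block (5.79%). H2afz, an H2A variant, had a mean of 396 ± 29.7 CPM in WT and 302 ± 49.3 CPM in Exon2KO (SD, n = 3 each), lower in every Exon2KO than in every WT library. Its log2 fold change was -0.39 (SE 0.12, edgeR adjusted p = 0.163), and -0.40 with the block (adjusted p = 0.00104). Without the block it was also called by DESeq2 (adjusted p = 0.0397) and by edgeR without a filter (adjusted p = 0.0103). The other 2, named after their values were seen, were the linker histone gene H1f0 at -0.37 and the centromeric H3 gene Cenpa at -0.28 with the block. H3f3a (0.08), H3f3b (0.11) and H2afx (-0.18) were not called in either fit. The median of the 9 was -0.12, and 0.0046 without WT 6.

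Factors that process histone mRNAs or carry histones (20 tested) had a median of 0.03, with 0 called by edgeR (2.33% of all tested genes) and 1 at an unadjusted p under 0.05 (12.1%). Slbp, the stem-loop binding protein, had 67.3 ± 15.2 CPM in WT and 60.9 ± 11.2 CPM in Exon2KO (SD, n = 3 each; log2 fold change -0.14, edgeR adjusted p = 0.878). Npat, the transcriptional activator of the histone loci, had 33.2 ± 0.994 and 34.4 ± 2.78 CPM (log2 fold change 0.05, adjusted p = 0.921). With the block Lsm11, of the U7 snRNP, was called higher (0.42, edgeR adjusted p = 0.0224) and Chaf1a, of the chromatin assembly factor CAF-1, lower (-0.41, adjusted p = 0.0229); both are named after their values were seen, and 3.93% of all tested genes were called higher and 5.79% lower with the block. The median of the list turned to -0.0015 without WT 2 and to -0.0037 without Exon2KO 20.

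**Figure D5:**
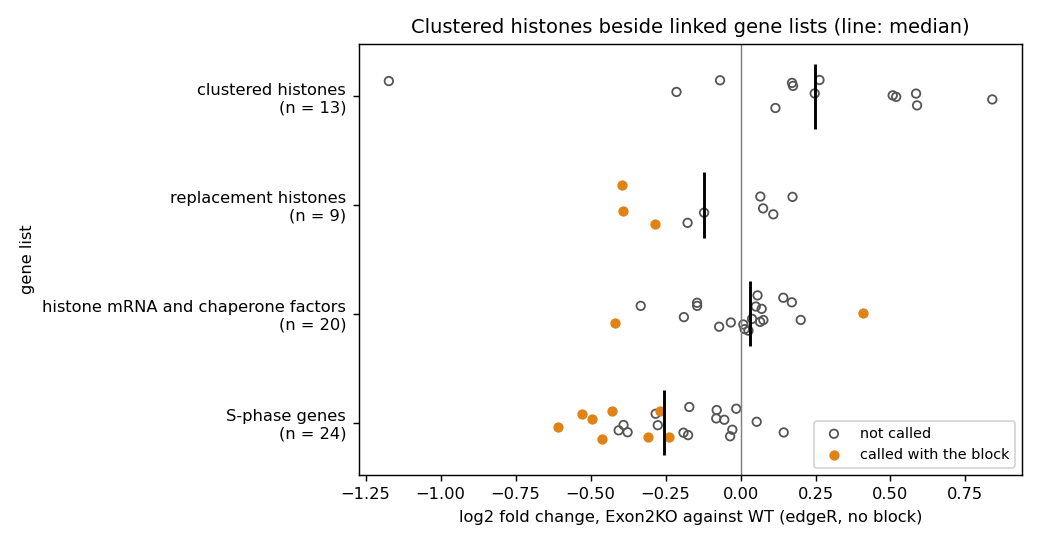
Log2 fold changes, Exon2KO against WT, by edgeR without the block for the 13 tested clustered histone genes and the 3 linked lists; each circle is a gene and the black line the median. Filled circles are genes called with the block: none among the clustered histones, 3 replacement histones, 2 processing or chaperone factors and 8 S-phase genes.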

How the data were processed

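RNA of 6 mouse Treg libraries was measured. The submitters' processing notes name HISAT2 2.0.5, StringTie 1.3.3b, featureCounts 1.5.0-p3, DESeq2 1.16.1 and mm10, with no role. The deposited table gives, per the file headers, whole-number counts per gene and library; its 6 FPKM columns were not used. It also holds the authors' own comparison, per the file headers: the p-value with its adjusted form, the log2 fold change and, not used here, a scaled signal mean per group.

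Counts were tested as deposited with edgeR 4.0.16 in R 4.3.3 (filterByExpr, TMM, robust quasi-likelihood test, two-sided), adjusted by Benjamini-Hochberg over 14919 genes, with calls at an adjusted p under 0.05. Members, lists and the rule for named genes (tested members with a mean of at least 1 CPM in a genotype, called members, the top member of each class, and 7 genes of the linked lists) were chosen with earlier results of these data known. CPM use TMM-scaled library sizes unless the plain total is named. P-values measure differences against the spread between libraries of a group or, in fits with the block, against the spread left after the column number is fitted. Alternatives used DESeq2 1.42.0 and limma-voom (limma 3.58.1), other scalings and filters, GC and length offsets, a block, and left-out libraries.

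Columns carry other numbers than the sample titles, so each was assigned to its genotype only. Same-numbered libraries deviated together (correlations across genes of 0.271, 0.369 and 0.494; other pairs -0.372 to 0.0538), so the number was used as the block; no label says what it stands for. No 2 libraries of a genotype agreed within sampling noise (chi-square per degree of freedom 8.12 to 23.6). Of 55840 identifiers, 55394 occur in GENCODE M21 (GRCm38), whose transcripts gave the sequences. The fits were tested on simulated data, with no outcome reported here. One marker gene of the erythroid list is not reported here.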

Additional observations from a re-analysis of the deposited data

How the results depend on the processing

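The count of clustered histone genes called was 0 in all 20 alternatives. Of 185 values of the 10 named genes under alternatives, 182 kept their direction and side of the threshold. With libraries left out, Hist3h2a ran from -0.034 (without WT 2) to 0.47, Hist1h2bc from -0.0076 (without Exon2KO 6) to 0.34 and Hist1h4i from -0.45 to 0.057 (without both libraries numbered 20); the causes were not tested. The 348 genes called among all genes became 639 under DESeq2 and 617 when no filter was set. With 1 library or both libraries numbered 20 left out they numbered 86 to 362, the lowest being without Exon2KO 2. Adding the replicate block gave 1450, and joining it to a GC offset, a length offset or no filter (the last added after seeing the data) gave 1497, 1587 and 1962; the residual coefficient of variation was 8.56% with the block and 17.3% without. In the same order these 4 blocked fits called 3, 3, 2 and 3 replacement histones, 2, 3, 3 and 4 processing and chaperone factors, and 8, 9, 8 and 11 S-phase genes. Their unblocked counterparts called 0 of each list, except for 1 replacement histone, H2afz, when no filter was set; DESeq2 also called H2afz (1 gene), and 0 to 1 replacement histones were called with libraries left out. Beyond these lists the block changed the calls of Pecam1, Cd79b and Lyz2 and of no other gene named in the report. By edgeR the adjusted p of the B cell marker Cd79b went from 0.0828 to 0.00501 with the block. That of the myeloid marker Lyz2 went from 0.865 to 0.0413, and both genes were lower in Exon2KO. Without the block Cd79b was also called by DESeq2 (adjusted p = 0.0358) and by edgeR without a filter (adjusted p = 0.0446). The difference of summed CPM ran from -0.405 to 6.48 with libraries left out. Low counts limit what can be said of the family: 41 of the 54 detected members had at most 58 counts in all.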

Other observations

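Noncoding RNAs known to lack a long poly(A) tail were looked up after the histone counts were seen. Rn7sk had between 158 and 256 counts per library, while Rmrp and Terc had 0 counts in every library and Rpph1 had 1 count in all 6 together. These values are given with no explanation.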
